A study of Mus musculus with 24 samples.

Results

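The genes described here are a core set of the Notch pathway in cultured mouse limb buds: the receptor gene Notch1, the ligand genes Dll1, Dll4, Jag1 and Jag2, and the target genes Hes1, Hey1, Hey2, Heyl and Nrarp. They were taken by gene symbol, and 10 of 10 were found among 25844 genes, each under 1 identifier as a protein-coding gene. RNA was measured by poly-A sequencing of forelimb buds of CD1 mice at gestation day 13, grown in culture for 24 or 3 h. The limb buds had received the solvent DMSO, 1 µM tert-butylphenyl diphenyl phosphate (BPDP) or 10 µM BPDP, with 4 libraries in each of the 6 groups of dose and time. BPDP belongs to the organophosphate esters, added to plastics as flame retardants and softeners, and the title of the series names hedgehog signalling as the pathway of interest. No group carries a transgene or a deleted gene, and every group, DMSO included, went through the same culture, so the DMSO limb buds are cultured and not fresh tissue. The labels do not say how many embryos or limb buds went into a library, or that replicates came from separate litters, so p-values here measure the spread among these libraries, which may be technical.

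Notch signalling works between touching cells. A Delta-like or Jagged ligand on the sending cell pulls on the receptor of its neighbour, proteases then free the receptor's intracellular part, and this fragment joins the DNA-binding protein RBPJ in the nucleus and switches on target genes. The Hes and Hey genes encode basic helix-loop-helix repressors, and Nrarp encodes a small ankyrin-repeat protein that binds the freed receptor fragment and limits its activity. In developing mouse tissue Dll4 is best known from arterial and sprouting endothelium, Heyl from the smooth muscle and mural cells of vessels, Jag2 from the apical ectodermal ridge of the limb bud, and Hes1 and Jag1 from many cell types including limb mesenchyme.

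In the deposited annotation (mm10), Nrarp (ENSMUSG00000078202) lies at chr2:25180758-25183339 on the plus strand, Dll4 (ENSMUSG00000027314) at chr2:119325784-119335962 (plus), Jag1 (ENSMUSG00000027276) at chr2:137081456-137116644 (minus) and Hes1 (ENSMUSG00000022528) at chr16:30064384-30067796 (plus). Notch1 also lies on chromosome 2, and the other 5 genes lie on chromosomes 3, 4, 10, 12 and 17.

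Sequence before the start sites is shown for 4 genes. Nrarp and Dll4 fell with 10 µM BPDP at 24 h, and Jag1 rose over culture time together with Dll4. Hey2 did not pass the test in any comparison and is shown because it held the RBPJ letters. Promoter sequences come from RefSeq (GRCm38.p6) and cover the 250 bases before the start site annotated there, 5′ to 3′ on the gene's strand. For Nrarp and Dll4 the window ends at the base before the deposited gene. The windows of Jag1 and Hey2 reach into the deposited gene, and that of Notch1 lies inside it. Distances of motifs below are therefore counted from the RefSeq start. Of the 10 genes, 7 matched an entry, and Hes1, Hey1 and Heyl did not. Capitals mark letters of a searched motif. The windows are chr2:25180508-25180757 (plus strand) for Nrarp, chr2:119325534-119325783 (plus strand) for Dll4, chr2:137116521-137116770 (minus strand) for Jag1 and chr10:30842784-30843033 (minus strand) for Hey2.
Nrarp: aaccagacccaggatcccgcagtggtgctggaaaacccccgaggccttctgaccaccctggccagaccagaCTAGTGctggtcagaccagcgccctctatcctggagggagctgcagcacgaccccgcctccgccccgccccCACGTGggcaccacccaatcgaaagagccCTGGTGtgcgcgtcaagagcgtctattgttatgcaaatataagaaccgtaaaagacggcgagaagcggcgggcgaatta
Dll4: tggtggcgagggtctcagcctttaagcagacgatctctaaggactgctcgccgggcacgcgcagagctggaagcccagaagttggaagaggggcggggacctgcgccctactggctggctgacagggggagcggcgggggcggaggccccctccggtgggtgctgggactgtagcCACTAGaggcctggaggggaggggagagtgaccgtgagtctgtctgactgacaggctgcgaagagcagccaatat
Jag1: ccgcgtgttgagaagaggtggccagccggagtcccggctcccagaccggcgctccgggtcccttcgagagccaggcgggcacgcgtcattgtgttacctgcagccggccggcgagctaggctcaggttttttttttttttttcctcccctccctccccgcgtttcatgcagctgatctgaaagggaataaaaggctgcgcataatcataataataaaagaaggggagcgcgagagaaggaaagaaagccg
Hey2: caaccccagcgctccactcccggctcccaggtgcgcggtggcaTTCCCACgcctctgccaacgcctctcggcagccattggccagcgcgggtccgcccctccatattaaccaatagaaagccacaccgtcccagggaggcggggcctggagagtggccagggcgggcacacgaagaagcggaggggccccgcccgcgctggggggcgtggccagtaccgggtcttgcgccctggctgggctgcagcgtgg
The motifs searched on both strands were the RBPJ letters GTGGGAA, the N-box CACNAG to which Hes proteins bind, the E-box CACGTG, which reads the same on both strands, and the Gli letters TGGGTGGTC. The N-box and the E-box cannot match the same stretch, and no match of a motif overlapped that of another in these windows. The RBPJ letters were in 1 of the 7 genes, at -207 in Hey2 on the opposite strand, and in 5.42% of all 32851 windows of this length. N-boxes were in 3 of the 7, at -179 and -79 in Nrarp, at -75 in Dll4 and at -108 in Notch1, and in 36.7% of all windows. The E-box was in Nrarp alone among the 7, at -108, and in 6.02% of all windows. The Gli letters were in 0 of the 7 windows and in 0.225% of all windows. Jag1 held no capital letters, which says only that these letters are not in this window.

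Total counts per library ranged from 14165947 to 20823058, and all 10 genes passed the filter on low counts in every comparison. Tbx5, which marks the forelimb, averaged 237 to 286 CPM (read counts scaled to a common library total) over the groups, against 4.24 to 8.70 CPM for the hindlimb factor Pitx1 and 18.5 to 20.98 CPM for the hindlimb factor Tbx4. In deviations from the group means, the first principal component (24.2% of the variance) placed replicates 1 and 2 on the other side from replicates 3 and 4 in all 6 groups, and the labels name no batch, so values within each of these sets are given beside the calls against DMSO and over time in DMSO. The hedgehog target genes Gli1 and Ptch1 fell with 10 µM at 24 h (log2 fold changes -5.89 and -1.86, adjusted p 0.000982 and 6.08e-06). Gli1 averaged 1.71 ± 1.19 CPM with 10 µM and 106 ± 21.4 CPM in DMSO, and Ptch1 averaged 21.98 ± 1.63 CPM with 10 µM and 80.9 ± 13.8 CPM in DMSO (SD, n = 4 each).

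Levels of different genes were compared as CPM per kilobase of the deposited gene length. Hes1 was the most abundant of the 10 transcripts per length in all 6 groups, at 32.6 ± 1.89 CPM per kb with 10 µM at 24 h and 48.2 ± 9.14 CPM per kb in DMSO at 24 h (SD, n = 4 each). In the 10 µM libraries at 24 h it was followed by Jag2 (11.1 ± 1.91 CPM per kb) and Hey1 (10.0 ± 0.36), which were within their SD, and by Jag1 (9.40 ± 0.47). Nrarp stood at rank 5 of 10 there, at 7.65 ± 1.43 CPM per kb and within its SD of Notch1 (6.97 ± 0.77), and Dll4 (3.42 ± 0.57), Heyl (2.70 ± 0.24), Dll1 (1.66 ± 0.31) and Hey2 (1.63 ± 0.77) came last. In the 24 h DMSO limb buds Nrarp stood at rank 2, at 27.5 ± 10.9 CPM per kb, above Hey1 (13.0 ± 1.81), Jag2 (12.8 ± 3.42) and Jag1 (11.9 ± 2.46), which were within their SD of each other. The order from Notch1 (7.75 ± 1.58 CPM per kb) through Dll4 (6.35 ± 1.61), Heyl (4.48 ± 1.63) and Dll1 (1.91 ± 0.17) to Hey2 (1.59 ± 0.20) was the same in both groups. Without the division by length the long Notch1 transcript ranked highest in both groups, so these ranks hold per length only. Across the 6 groups, the level of Nrarp was lowest with 10 µM at 24 h by more than the SD, and no other neighbours in its order were so separated. Dll4 was highest in DMSO at 24 h by more than the SD. Mean CPM of Hes1 was highest in DMSO at both times, which were within their SD. It then stepped down by more than the SD through 1 µM at 3 h, 1 µM at 24 h, 10 µM at 3 h and 10 µM at 24 h. The steps over time within a dose did not pass the edgeR test, and the libraries overlapped. For 24 h over 3 h the log2 fold change was -0.12 with 1 µM (adjusted p = 0.462) and -0.07 with 10 µM (adjusted p = 0.677).

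**Figure D1:**
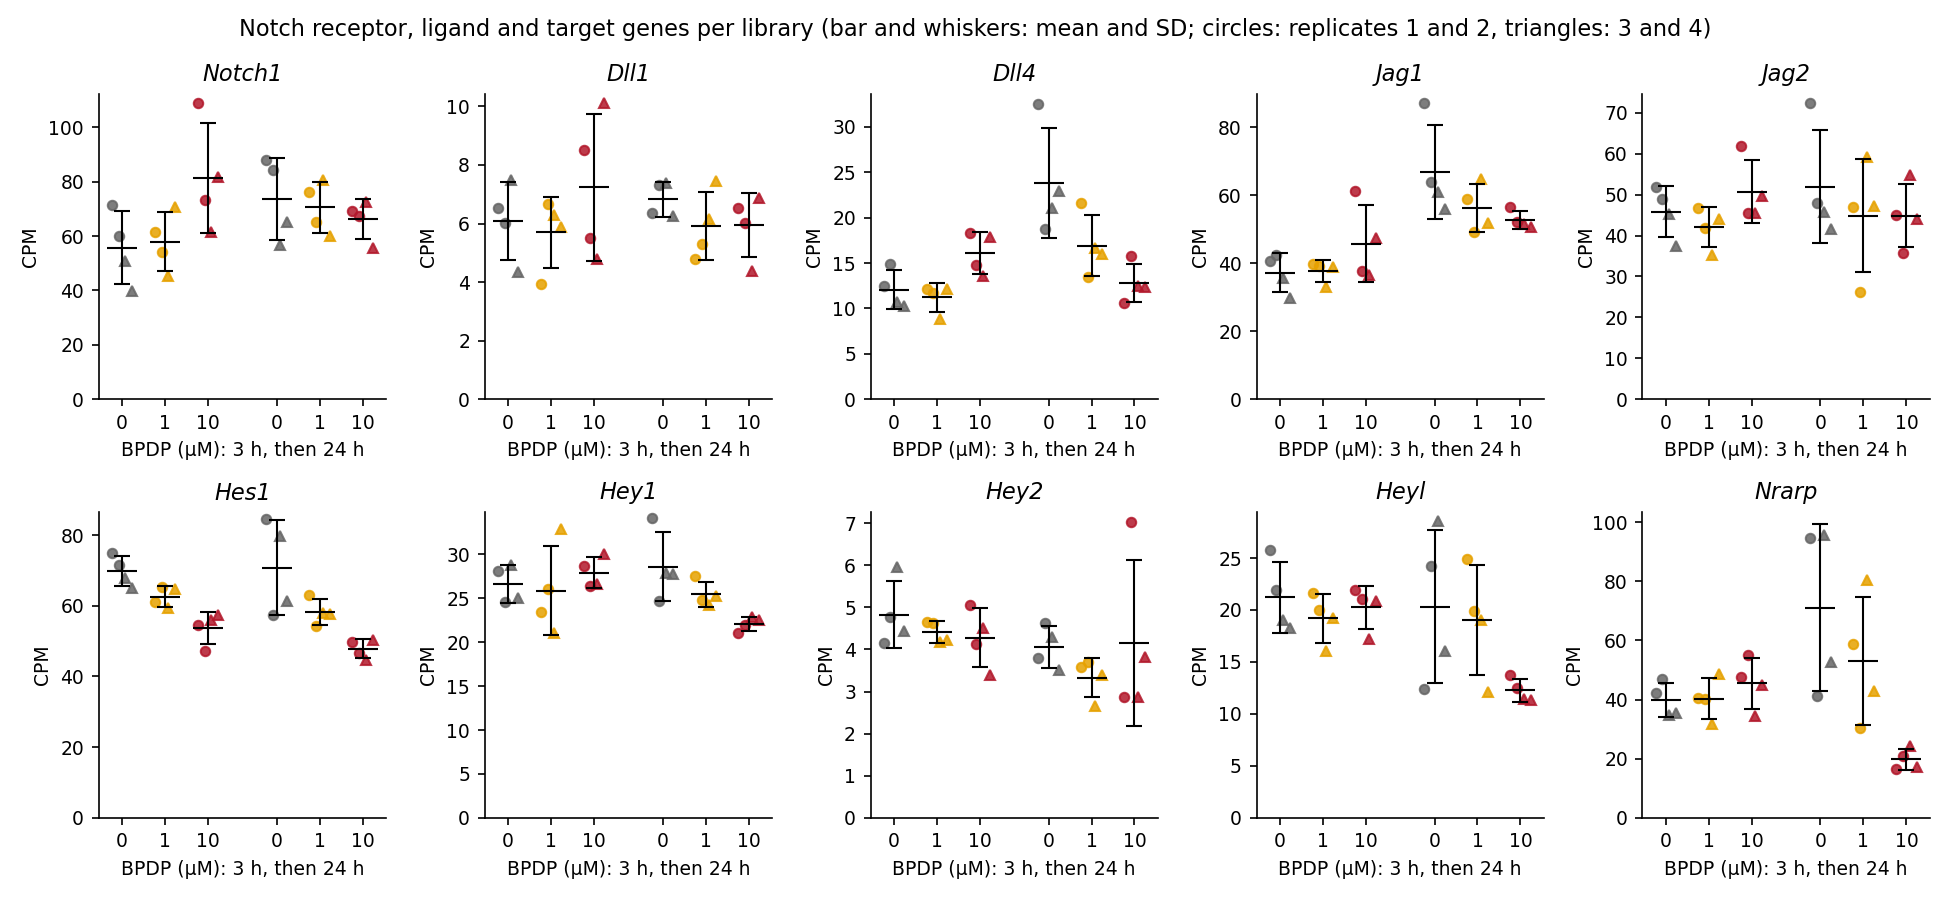
CPM (y axis, from 0) of the 10 genes in each of the 24 libraries, by BPDP dose at 3 h (left 3 groups of a panel) and 24 h (right 3 groups); the horizontal bar and whiskers are mean and SD of 4 libraries, and 0 µM is DMSO. At 24 h the 10 µM libraries of Nrarp lie between 16.4 and 24.4 CPM, below all 4 DMSO libraries, which lie between 41.3 and 95.7 CPM.

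The comparison of 10 µM BPDP with DMSO at 24 h asks how the compound acts on these genes after a day of culture. Nrarp, Dll4 and Hes1 fell, 3 of the 10 genes, and 0 rose (edgeR quasi-likelihood test, Benjamini-Hochberg adjusted p under 0.05 over all 15508 genes tested, here called). Of all genes tested, 6.21% were called in this comparison and 3.44% were called lower. With a replicate block, 1645 genes were called instead of 963, and the same 3 of the 10. The fold changes of 9 of the 10 genes were below 0 and their median was -0.35 (log2), beside a median of -0.0168 and 52.6% below 0 over all genes. The groups did not overlap, with 10 µM lower, for 4 of the 10 genes (Nrarp, Dll4, Hes1 and Hey1), against 7.87% of all genes in that direction.

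Nrarp, the feedback inhibitor, showed the largest change of the 10 genes. Its 4 libraries had 16.4, 21.1, 24.4 and 17.2 CPM with 10 µM, against 94.7, 41.3, 95.7 and 52.7 CPM in DMSO (replicates 1 to 4). All 4 treated libraries were below the lowest control, and the controls themselves fell into a high pair (replicates 1 and 3) and a low pair (replicates 2 and 4). The log2 fold change was -1.85 ± 0.34 (SE, adjusted p = 0.0207). The call was lost without replicate 1, 2 or 4 of the 10 µM group (adjusted p 0.0679 to 0.0714) and with no filter on low counts (adjusted p = 0.0528), while the fold change stayed between -2.05 and -1.66 in all alternatives. It was -1.86 in replicates 1 and 2 alone (adjusted p = 0.296) and -1.83 in replicates 3 and 4 alone (adjusted p = 0.203).

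Dll4, a ligand on endothelial cells, had 10.6, 15.7, 12.5 and 12.4 CPM with 10 µM, against 32.5, 18.8, 21.03 and 22.9 CPM in DMSO. The groups did not overlap, and the highest control was replicate 1. The log2 fold change was -0.89 ± 0.19 (SE, adjusted p = 0.0172). It was -0.96 in replicates 1 and 2 alone (adjusted p = 0.414) and -0.81 in replicates 3 and 4 alone (adjusted p = 0.0179), and the adjusted p was between 0.0534 and 0.0655 without replicate 1, 3 or 4 of the 10 µM group. Gm14207, annotated as a processed transcript, overlaps Dll4 on the other strand, and the sources used here do not state whether counting used strand; over all libraries it held 663 counts beside 6552 of Dll4 (10.1%), and at 24 h it had 1.78 to 2.46 CPM with 10 µM and 2.18 to 3.43 CPM in DMSO.

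Hes1, a Notch target in many tissues, had 49.9, 46.8, 44.5 and 50.4 CPM with 10 µM, against 84.5, 57.3, 79.7 and 61.3 CPM in DMSO. The treated libraries lay close together and below every control, and the high controls were again replicates 1 and 3. The log2 fold change was -0.56 ± 0.14 (SE, adjusted p = 0.0382). This call was lost when any 1 of 6 libraries was left out (10 µM replicates 1 to 4 and DMSO replicates 1 and 3, adjusted p 0.0684 to 0.108), with fold changes of -0.67 to -0.44 in all alternatives. It was -0.54 in replicates 1 and 2 alone (adjusted p = 0.493) and -0.56 in replicates 3 and 4 alone (adjusted p = 0.0464).

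The other targets did not pass the test. Heyl had 13.7, 12.5, 11.5 and 11.4 CPM with 10 µM, against 12.4, 24.2, 28.6 and 16.1 CPM in DMSO, and DMSO replicate 1 lay within the treated range. Its log2 fold change was -0.71 ± 0.22 (SE, adjusted p = 0.0796), and it passed with DESeq2 (adjusted p = 0.0276), in the fit of all 24 libraries (0.0196) and without DMSO replicate 1 (0.0159). Hey1 averaged 22.1 ± 0.80 CPM with 10 µM and 28.6 ± 3.98 CPM in DMSO (SD, n = 4 each; adjusted p = 0.137), and it passed in the fit of all 24 libraries (adjusted p = 0.0385) and without DMSO replicate 2 (0.0424). Hey2 had 2.86, 7.02, 2.87 and 3.82 CPM with 10 µM, against 3.80, 4.64, 4.30 and 3.51 CPM in DMSO. Its highest and its lowest library were both treated ones, and its log2 fold change was 0.04 with a 95% interval of -0.55 to 0.63.

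The receptor and the remaining ligands also stayed short of the threshold. Jag1 had 56.6, 52.0, 51.6 and 50.7 CPM with 10 µM, against 87.0, 63.9, 60.9 and 55.8 CPM in DMSO (log2 fold change -0.33, 95% interval -0.60 to -0.07, adjusted p = 0.178). The Jag1 groups overlapped only through 10 µM replicate 1, which lay above the lowest control. Notch1 averaged 66.1 ± 7.31 CPM with 10 µM and 73.5 ± 15.0 CPM in DMSO, Jag2 averaged 44.9 ± 7.73 CPM with 10 µM and 52.0 ± 13.9 CPM in DMSO, and Dll1 averaged 5.95 ± 1.09 CPM with 10 µM and 6.83 ± 0.59 CPM in DMSO (SD, n = 4 each). Their log2 fold changes lay between -0.20 and -0.13 with adjusted p of 0.622 to 0.654, and the 95% intervals reached down to -0.40 for Notch1, -0.58 for Jag2 and -0.57 for Dll1.

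**Figure D2:**
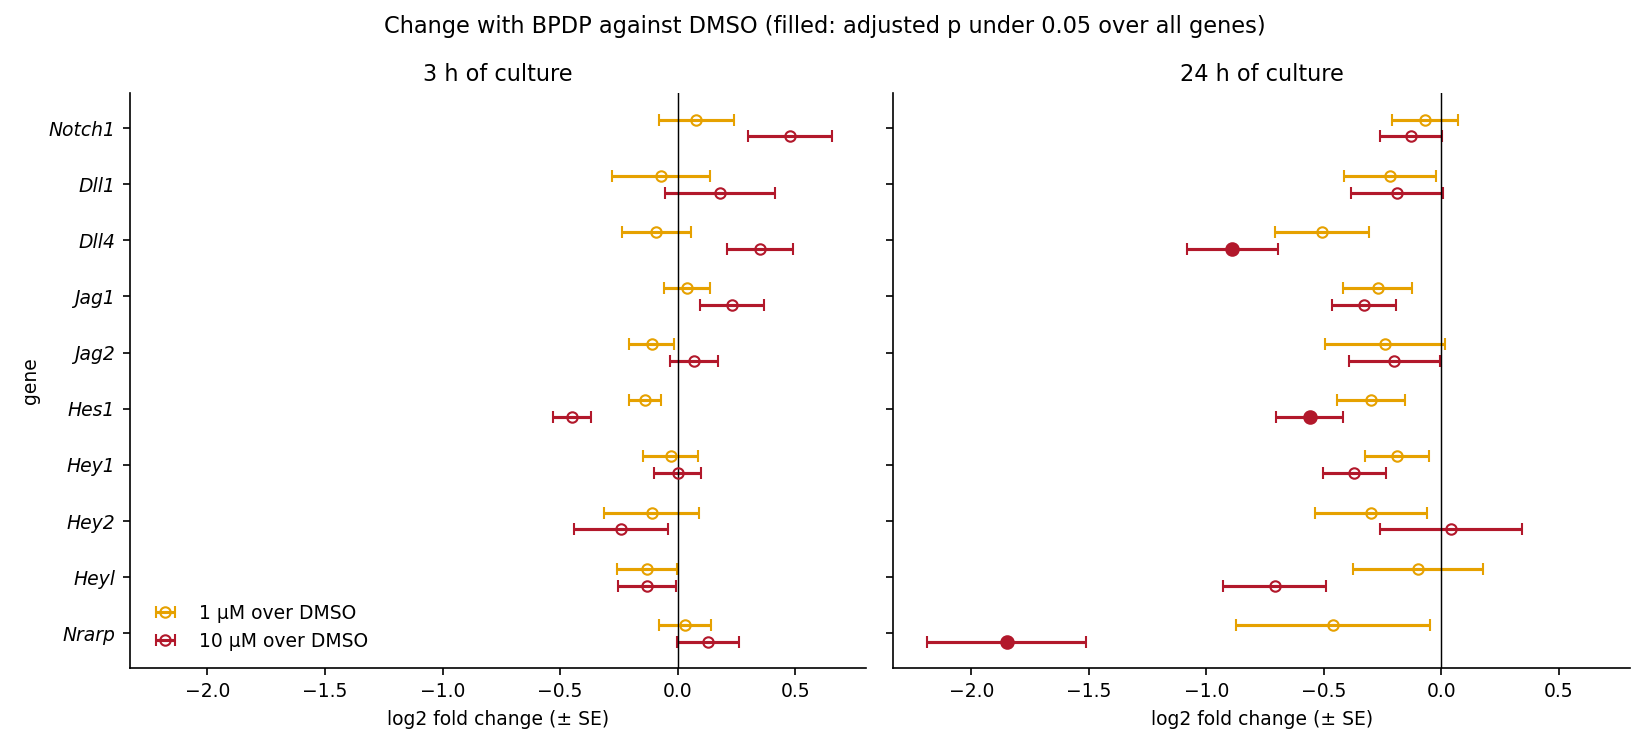
Log2 fold change over DMSO (x axis, with SE) of each gene (y axis) at 1 µM and 10 µM BPDP, at 3 h (left) and 24 h (right); filled points have an adjusted p under 0.05 over all genes. At 24 h and 10 µM the filled points are Nrarp (-1.85), Dll4 (-0.89) and Hes1 (-0.56); at 3 h no point is filled.

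At 1 µM and 24 h, 0 of the 10 genes were called, in a comparison with 0.077% of genes called by edgeR, and DESeq2 also called 0 of the 10. At an unadjusted p under 0.05 there was 1 of 10, beside 5.89% of all genes. The DMSO libraries here also served the comparisons of 10 µM at 24 h and of time in DMSO, so directions shared between these are not independent. All 10 fold changes with 1 µM were below 0, between -0.51 and -0.07 with a median of -0.25, where 53.0% of all genes were below 0. Dll4 showed the largest of these values: 21.6, 13.5, 16.6 and 16.01 CPM with 1 µM, against the DMSO values above (log2 fold change -0.51 ± 0.20, unadjusted p = 0.0238, adjusted p = 0.72). These libraries overlapped the controls through replicate 1. Nrarp had 58.7, 30.4, 80.4 and 42.8 CPM with 1 µM, which overlapped the controls widely, and replicates 1 and 3 were the high ones here too. Its log2 fold change had a 95% interval of -1.27 to 0.35.

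Nrarp separated the doses at 24 h. Between 10 µM and 1 µM it differed by -1.40 ± 0.29 (log2, SE; adjusted p = 0.0113), the single gene of the 10 called in a contrast with 3.35% of genes called. The 10 µM libraries were below the 1 µM libraries without overlap for Nrarp, Hes1 and Hey1, 3 of the 10, against 7.11% of all genes in that direction. Heyl was at -0.61 ± 0.20 (log2, SE; adjusted p = 0.0968), and it passed without 1 µM replicate 4 (adjusted p = 0.0192). Dll4 (-0.38, adjusted p = 0.259) and Hes1 (-0.26, adjusted p = 0.199) were not called between the doses. At 3 h, 0 of the 10 genes and 0 of 16691 genes were called between 10 µM and 1 µM by edgeR, and DESeq2 called 0 of the 10; 3 of the 10 had an unadjusted p under 0.05, beside 8.30% of all genes. The 3 were Dll4, higher with 10 µM without overlap (log2 fold change 0.43, as for 5.70% of genes in that direction), Hes1, lower without overlap (-0.31, as for 1.11%), and Notch1 (0.39), each with an adjusted p of 0.6.

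After 3 h, the question was whether any of the genes had moved early. With 10 µM, 0 of the 10 genes were called and 0.00644% of all genes were, which is 1 gene (335 genes with a replicate block). At an unadjusted p under 0.05 there were 3 of 10 (Hes1, Notch1 and Dll4), beside 15.5% of all genes. Hes1 had 54.5, 47.3, 55.9 and 57.5 CPM with 10 µM, against 74.8, 71.5, 67.9 and 64.9 CPM in DMSO. Every treated library was below every control, as for 2.31% of all genes, while 7.42% were above every control. Its log2 fold change was -0.45 ± 0.082 (SE, adjusted p = 0.067), ranked 17 of 15520 genes by p. With a replicate block it was called (adjusted p = 0.0231), as it was with DESeq2 (0.00062), with no filter on low counts (0.0149) and when replicates 1 and 2 were set against 3 and 4 by a model term (0.0146), and its fold change stayed between -0.57 and -0.31 in all alternatives. In the authors' deposited table (DESeq2) the log2 fold change of Hes1 in this comparison is -0.41 with an adjusted p of 0.000741. For 10 µM at 24 h their adjusted p is 2.43e-05 for Nrarp, 0.000689 for Dll4, 0.00791 for Hes1 and 0.0266 for Heyl. No other of the 10 genes is under 0.05 there.

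Notch1 and Dll4 pointed the other way at 3 h. Notch1 had 108.9, 73.2, 61.3 and 81.8 CPM with 10 µM, against 71.5, 60.1, 51.0 and 40.0 CPM in DMSO, and the groups overlapped. Its log2 fold change was 0.48 ± 0.18 (SE, adjusted p = 0.244), and with the replicate block it passed (adjusted p = 0.0304). Replicate number paired the libraries less clearly at 3 h than at 24 h, which limits the block values for Notch1 and Hes1 here. Dll4 had 18.3, 14.8, 13.6 and 17.9 CPM with 10 µM, against 12.5, 14.9, 10.7 and 10.2 CPM in DMSO, which overlapped through DMSO replicate 2 (log2 fold change 0.35 ± 0.14, adjusted p = 0.246, 0.148 to 0.894 over all alternatives). For Nrarp, which fell at 24 h, the value at 3 h was 0.13 with a 95% interval of -0.13 to 0.38. With 1 µM at 3 h, 0 of the 10 genes were called by edgeR or DESeq2, as were 0 of 15446 genes, and 0 of the 10 had an unadjusted p under 0.05 (5.19% of all genes did). The 10 fold changes lay between -0.14 and 0.08.

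Whether the effect of 10 µM differed between the times was tested in 1 fit of all 24 libraries. The effect at 24 h minus the effect at 3 h was called for 2 of the 10 genes, with 2.59% of 16691 genes called. For Nrarp the difference was -1.98 ± 0.41 (log2, SE; adjusted p = 0.00941), and for Dll4 it was -1.24 ± 0.25 (adjusted p = 0.00282), and both calls held without any 1 of the 16 libraries involved. For Jag1 it was -0.56 ± 0.19 (adjusted p = 0.123), which passed with the replicate block (adjusted p = 0.0421). For Hes1 the difference was -0.11 with a 95% interval of -0.41 to 0.19. The same difference for 1 µM was called for 0 of the 10 genes and for 0.0359% of all genes by edgeR, for 0 of the 10 by DESeq2, and 0 of the 10 had an unadjusted p under 0.05 (3.44% of all genes did).

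Time in culture was compared within the DMSO limb buds. At 24 h Dll4 and Jag1 rose relative to 3 h, 2 of the 10 genes, with 9.55% of all genes called and 5.45% called higher. Jag1 had 87.0, 63.9, 60.9 and 55.8 CPM at 24 h, against 40.7, 42.5, 35.7 and 29.8 CPM at 3 h (log2 fold change 0.88 ± 0.15, adjusted p = 0.00255). Dll4 had 32.5, 18.8, 21.03 and 22.9 CPM at 24 h, against 12.5, 14.9, 10.7 and 10.2 CPM at 3 h (log2 fold change 1.01 ± 0.19, adjusted p = 0.00487). For both genes the times did not overlap, which was so with 24 h higher for 6.91% of all genes. Both calls held without any 1 library, and both were lost with replicates 1 and 2 alone (Jag1 0.89, adjusted p = 0.128; Dll4 0.95, adjusted p = 0.255). With replicates 3 and 4 alone, Jag1 was at 0.84 (adjusted p = 0.00102) and Dll4 at 1.08 (adjusted p = 0.00243). Gm14207, which overlaps Dll4 on the other strand, had 2.18 to 3.43 CPM at 24 h and 0.17 to 1.19 CPM at 3 h in DMSO. Its part in the Dll4 counts was not tested.

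Nrarp had the 24 h DMSO values given above against 42.2, 47.0, 34.8 and 35.4 CPM at 3 h in DMSO, overlapping through replicate 2 at 24 h. Its log2 fold change of 0.88 ± 0.31 did not pass (adjusted p = 0.129), but it did with DESeq2 (0.00607), in the fit of all 24 libraries (0.0428) and without DMSO replicate 2 at 24 h (0.0138). Notch1 was at 0.42 ± 0.17 (log2, SE; adjusted p = 0.133) and passed with the same model term for the replicate sets (0.012), in replicates 3 and 4 alone (0.049) and without DMSO replicate 1 at 3 h (0.0436). The targets Hes1, Hey1, Hey2 and Heyl lay between -0.23 and 0.13 (log2) with adjusted p of 0.564 to 0.923.

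The change over time within each dose is set side by side in the fit of all 24 libraries. In that fit Dll4 was at 1.00 ± 0.17 in DMSO (adjusted p = 0.00015), 0.58 ± 0.17 with 1 µM (adjusted p = 0.018) and -0.23 ± 0.17 with 10 µM (adjusted p = 0.339; log2, SE, 24 h over 3 h). Jag1 was at 0.87 ± 0.13 in DMSO (adjusted p = 4.82e-05), 0.55 ± 0.13 with 1 µM (adjusted p = 0.00385) and 0.31 ± 0.13 with 10 µM (adjusted p = 0.0877, and 0.0229 with the replicate block). Nrarp was at 0.87 ± 0.28 in DMSO (adjusted p = 0.0428), 0.38 ± 0.28 with 1 µM (adjusted p = 0.399) and -1.11 ± 0.29 with 10 µM (adjusted p = 0.00775). Of the 10 genes, 2 rose over time with 1 µM (Dll4 and Jag1), where 19.9% of all genes were called and 10.1% called higher. With 10 µM, 2 fell over time (Nrarp and Heyl), where 28.1% were called and 14.1% called lower. Both counts were near the background. Heyl with 10 µM was at -0.63 ± 0.20 (adjusted p = 0.0213), a call that was lost without 10 µM replicate 3 or 4 at 24 h or replicate 1 or 2 at 3 h (adjusted p 0.0504 to 0.055). The Dll4 call with 1 µM was lost without 1 µM replicate 1 at 24 h (0.103) or replicate 3 at 3 h (0.0768). The 24 h levels of Dll4 with 10 µM (10.6 to 15.7 CPM) lay within those of the 3 h libraries of all doses (8.79 to 18.3 CPM). For Dll4 and Nrarp, the difference between the time courses of 10 µM and DMSO is the one tested above.

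**Figure D3:**
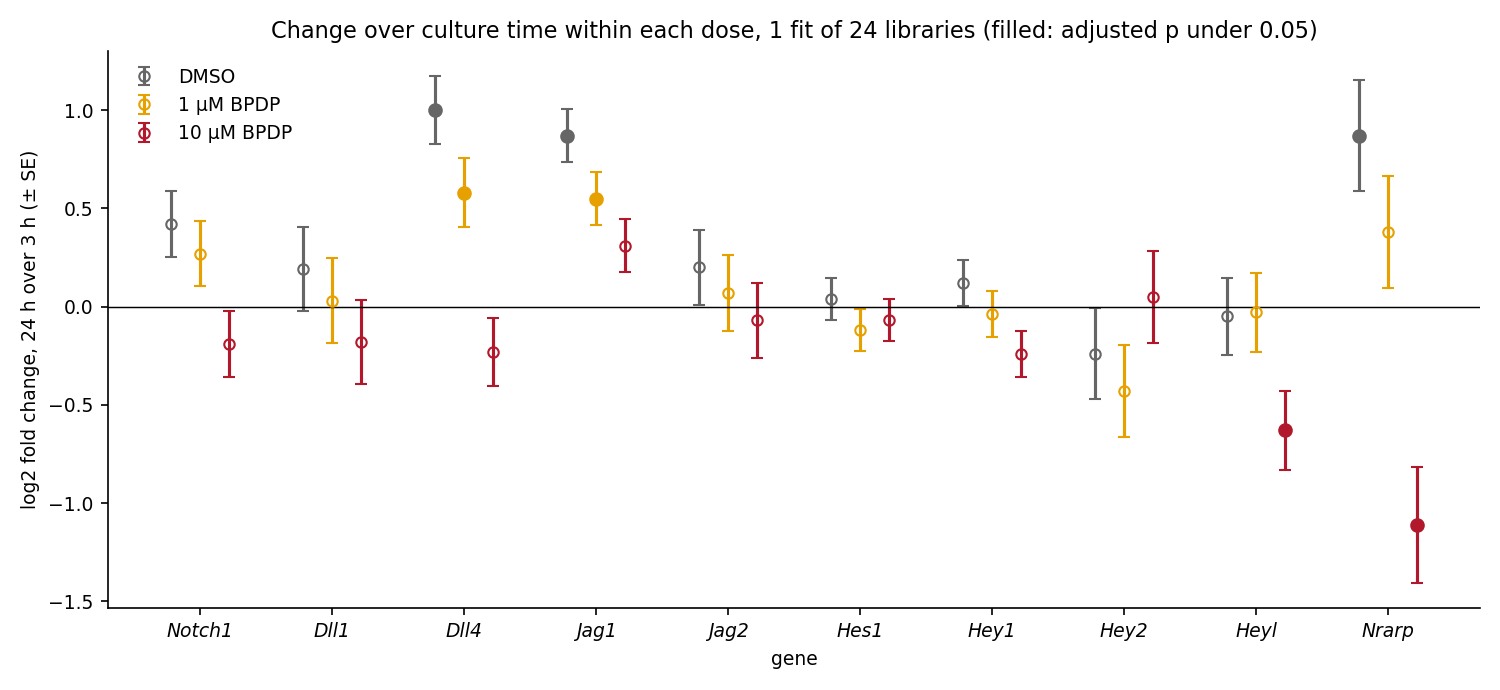
Log2 fold change of 24 h over 3 h (y axis, with SE) of each gene (x axis) within DMSO, 1 µM and 10 µM BPDP, all from 1 fit of 24 libraries; filled points have an adjusted p under 0.05 over all genes. Dll4 and Jag1 are filled and above 0 in DMSO and 1 µM, Nrarp is filled and above 0 in DMSO (0.87), and Nrarp and Heyl are filled and below 0 in 10 µM (-1.11 and -0.63).

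Each library holds RNA of whole limb buds, in which fewer cells of a type and less RNA per cell cannot be told apart, so marker genes of cell types are given beside the genes that fell. With 10 µM at 24 h, 6 of 16 endothelial markers fell and 1 rose (Erg, an endothelial transcription factor, log2 fold change 0.42), with a median of -0.50. Those that fell include Cdh5, the cadherin of endothelial junctions (-0.77), Esam, an endothelial adhesion molecule (-0.84), and Kdr, a receptor of vascular endothelial growth factor (-0.56). The summed level of the 16 genes was 364 to 435 CPM with 10 µM and 471 to 536 CPM in DMSO, with 0 of the 16 at 0. Per 100 CPM of these markers, Dll4 was at 2.73, 3.614, 3.43 and 3.07 with 10 µM, against 6.06, 3.605, 4.47 and 4.45 in DMSO. Treated replicate 2 lay just above the lowest control, so this ratio overlapped where the level did not. The mean ratio was 3.21 ± 0.39 with 10 µM and 4.65 ± 1.025 in DMSO (SD, n = 4 each). Over time in DMSO the sum of the 16 genes was 471 to 536 CPM at 24 h and 574 to 657 CPM at 3 h. Dll4 per 100 CPM of markers was 3.61 to 6.06 at 24 h and 1.73 to 2.32 at 3 h. With 10 µM at 24 h, of 7 arterial markers 1 fell (Gja4, a gap junction protein of arterial endothelium, -1.17), and of 5 tip cell markers 0 were called by edgeR or DESeq2 and 1 had an unadjusted p under 0.05.

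Over time in DMSO, 2 of the 16 endothelial markers fell and 0 rose (median log2 fold change -0.22), where 4.1% of all genes were called lower. Of the 7 arterial markers 3 rose and 0 fell, 7 of 7 were above 0, and their sum was 524 to 589 CPM at 24 h and 408.5 to 460 CPM at 3 h. The 3 were Cxcr4, a chemokine receptor (1.29), Gja4 (0.87) and Unc5b, a netrin receptor (0.39). Of the 5 tip cell markers, which mark sprouting endothelium, 3 rose and 0 fell, 5 of 5 were above 0, and their sum was 45.9 to 86.4 CPM at 24 h and 31.96 to 39.3 CPM at 3 h. The 3 were Esm1 (1.34), Pdgfb, a growth factor that attracts mural cells (0.77), and Angpt2, a ligand of the receptor Tie2 (0.67). In other lists, 9 of 10 cartilage markers, 5 of 7 macrophage markers, 3 of 10 epidermal markers and 2 of 9 mural markers rose and none of these fell. All 10 markers of dividing cells fell, as did 2 of 7 Schwann cell and neuron markers and 1 of 6 tested erythroid markers. Of 7 markers of perichondrium and mesenchyme 0 were called by edgeR, 2 by DESeq2, and 3 had an unadjusted p under 0.05. The part of these cell types in the rise of Dll4 and Jag1 was not tested.

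Epidermal markers are given beside Nrarp. Of 10 epidermal markers 2 fell with 10 µM at 24 h (Krt5, the keratin of basal cells, -1.26, and Grhl3, a transcription factor of the surface ectoderm, -1.55), and 10 of 10 were below 0. Their sum was 1462, 1232, 1437 and 971 CPM with 10 µM, against 2225, 1633, 2526 and 1555 CPM in DMSO, with 0 of the 10 at 0. The DMSO libraries with the high sums, replicates 1 and 3, were those with the high Nrarp. With 1 µM at 24 h replicates 1 and 3 were again the high ones in both. The sums there were 2585, 1293, 2167 and 1644 CPM, beside Nrarp at 58.7, 30.4, 80.4 and 42.8 CPM. With 10 µM the order differed, as replicate 1 had the highest sum and the lowest Nrarp (16.4 CPM). The macrophage sums in DMSO at 24 h were also higher in replicates 1 and 3 (158 and 190 CPM) than in replicates 2 and 4 (135 and 151 CPM). Per 100 CPM of the epidermal markers Nrarp was at 1.12 to 1.77 with 10 µM and 2.53 to 4.26 in DMSO, without overlap. Over time in DMSO this Nrarp ratio was 2.53 to 4.26 at 24 h and 3.07 to 3.89 at 3 h, which overlapped. Hes1 gave 3.10 to 5.19 per 100 CPM of epidermal markers with 10 µM and 3.16 to 3.95 in DMSO, which overlapped, and the part of either cell type in the changes of Dll4, Nrarp and Hes1 was not tested. These ratios were computed after the levels had been seen.

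**Figure D4:**
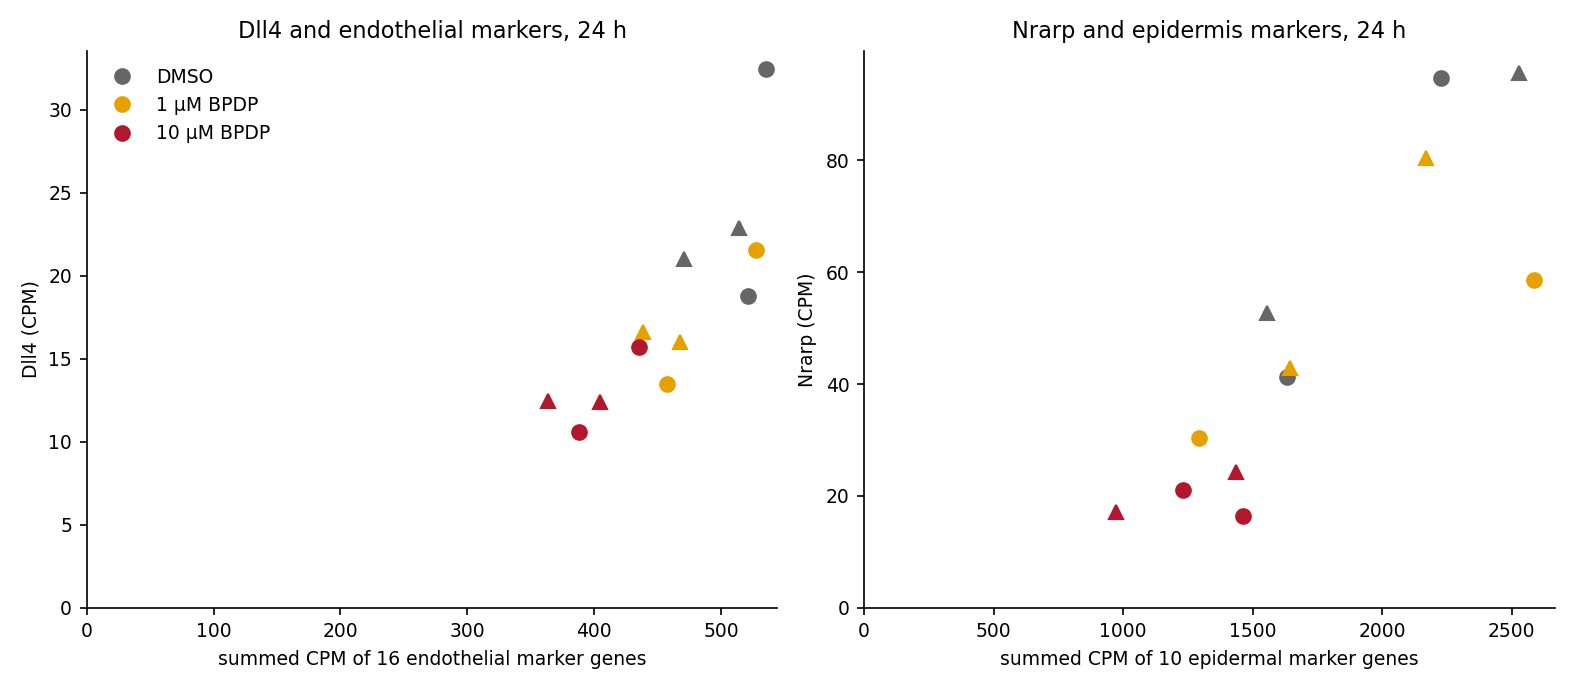
Level of Dll4 against the summed level of 16 endothelial markers (left) and of Nrarp against that of 10 epidermal markers (right) in the 12 libraries at 24 h, all axes in CPM from 0; circles are replicates 1 and 2, triangles replicates 3 and 4. The 4 libraries at 10 µM lie below the 4 DMSO libraries on every axis, with 364 to 435 CPM of endothelial markers, against 471 to 536 CPM in DMSO.

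Markers of other cell types were also called at 10 µM and 24 h. Of 7 macrophage markers 5 fell (sum 46.9 to 71.4 CPM with 10 µM and 135 to 190 CPM in DMSO), and all 10 markers of dividing cells fell (419 to 477 CPM with 10 µM and 736 to 891 CPM in DMSO). Of 9 mural markers 1 fell (Kcnj8, a potassium channel of pericytes, -1.48), and their sum was 714 to 885 CPM with 10 µM and 551 to 754 CPM in DMSO. Of 10 cartilage markers 0 were called by edgeR, 2 by DESeq2, and 5 had an unadjusted p under 0.05; 10 of 10 were above 0, with a median of 0.25 (log2). Of 7 Schwann cell and neuron markers, and of the 6 tested of 7 erythroid markers, 0 were called by either tool or had an unadjusted p under 0.05, and of 7 markers of perichondrium and mesenchyme 1 fell (Twist2, -0.65). At 3 h with 10 µM, 0 markers of any of these lists were called by edgeR; DESeq2 called 1 each of the arterial, mural, epidermal and perichondrium lists, and 0 to 3 of each list had an unadjusted p under 0.05.

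Of 53 other Notch pathway genes, 50 were tested at 24 h with 10 µM against DMSO, and 1 rose and 1 fell, with a median of 0.01 (log2). These 2 of 50 stand beside 6.21% of all genes called in this comparison, so the count was near the background. The gene that fell was Tle3, a Groucho-type corepressor used by Hes proteins, at 169 to 174 CPM with 10 µM and 222 to 246 CPM in DMSO (log2 fold change -0.44 ± 0.085, adjusted p = 0.00813). The gene that rose was Mib2, a ubiquitin ligase that acts on Notch ligands, at 83.9 to 95.9 CPM with 10 µM and 68.0 to 77.8 CPM in DMSO (0.31 ± 0.084, adjusted p = 0.0465). DESeq2 called 6 of the 50, and 11 had an unadjusted p under 0.05, beside 20.8% of all genes. Among the other receptors, Notch4 was nearest to the threshold (-0.47, adjusted p = 0.0505). Of the 9 cleavage proteases 0 were called by edgeR or DESeq2 and 0 had an unadjusted p under 0.05 (median 0.12), and of the 9 genes of the nuclear complex 0 were called by either tool and 1 had an unadjusted p under 0.05 (median -0.02). With 1 µM at 24 h, 0 of the 50 were called by edgeR or DESeq2 and 3 had an unadjusted p under 0.05. After 3 h of 10 µM, 0 were called by edgeR, 1 by DESeq2, and 8 had an unadjusted p under 0.05.

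Over time in DMSO, 3 of the 50 rose and 0 fell, where 5.45% of all genes were called higher, so this count too was near the background. Notch4, the receptor of endothelial cells, had 29.6 to 45.5 CPM at 24 h and 14.3 to 22.7 CPM at 3 h (log2 fold change 0.93 ± 0.14, adjusted p = 0.00133). Dlk1, an imprinted relative of the ligands that lacks their receptor-activating domain, averaged 1072 ± 239 CPM at 24 h and 629 ± 123 CPM at 3 h (SD, n = 4 each; 0.79, adjusted p = 0.0105). Kat2b, a histone acetyltransferase that works with the receptor fragment, was at 0.62 (adjusted p = 0.0353). With 10 µM, 6 of the 50 rose and 5 fell over time, 11 of 50 in all, where 28.1% of all genes were called and 14.1% were called lower. Among the 6 called genes with the largest change, Bhlhe41 (1.67) and Bhlhe40 (1.44), basic helix-loop-helix repressors, and Dlk1 (1.00) rose. Dll3, a ligand relative that inhibits signalling within the cell, fell (-1.53), as did the Fringe glycosyltransferases Mfng (-0.78) and Lfng (-0.50), which modify the receptor.

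Among the 10 genes, levels over the 24 libraries (log2(CPM + 1)) were most alike for Dll4 and Jag1 (Pearson r = 0.80), and deviations from the 6 group means were most alike for Notch1 and Jag1 (r = 0.83). Of all other genes, those closest to Nrarp by level included Pvrl1, a nectin of epithelial junctions (r = 0.928), and Aim1l (0.901), and by deviations they were Pvrl1 (0.926), Cebpa (0.925) and Phldb3 (0.921). Dll4 was closest by level to Igfbp3 (0.898), Snx31 (0.838) and Frem1 (0.835), and by deviations to Slco2b1 (0.812). Jag1 was closest by level to Abca1, a cholesterol exporter (0.922), and by deviations to Lamc1 (0.883); Hes1 was closest to Pthlh (0.873) and Dynlt3 (0.87), and Heyl to Usp10 (0.869) and the arterial gene Gja4 (0.871), in the same order of measures. These are descriptions over 24 libraries that share dose, time and library, and they carry no test.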

How the data were processed

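Forelimb bud RNA was sequenced after poly-A selection in 24 libraries (4 per group). Per the submitters' processing notes, CASAVA 1.8, STAR 2.5, HTSeq 0.6.1 and DESeq2 2 were used with the build mm10; strand use is not given in the sources used here. The authors deposited raw read counts per gene in 5 tables, whose shared libraries had 0 differing counts; the tables' 50 other columns of per-sample or group values were not used. The authors' deposited tables also give log2 fold changes and adjusted p-values, printed only where named.

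Counts of 25844 genes were joined by identifier. Levels are CPM of the library total. Overlap between groups, and its share over all genes, was read on these CPM without the TMM scaling used in the tests. Differences were tested with edgeR 4.0.16 (R 4.3.3; TMM scaling, filterByExpr with a minimum count of 10 and a minimum total of 15, robust quasi-likelihood fit, Benjamini-Hochberg adjustment over all genes): 5 fits of 8 libraries for doses against DMSO and for time in DMSO, and 1 fit of 24 libraries for the other contrasts. SE is the absolute log2 fold change divided by the root of F, and 95% intervals are normal ones from it. With so few libraries these intervals are narrower than the test implies. For Hes1 with 1 µM at 24 h the interval is -0.59 to -0.02, beside an unadjusted p of 0.0576 from edgeR. The test was checked on simulated counts. No replicates agreed within sampling noise (lowest chi-square per degree of freedom 4.91). Same-numbered replicates deviated together between each dose and DMSO at the same time (r 0.103 to 0.457 over 4 pairs each), a pairing seen in the data only. At 24 h, 3 of 4 libraries with 10 µM and 4 of 4 with 1 µM were most alike to the DMSO library of their number. At 3 h this held for 2 of 4 at either dose, so the number pairs the 3 h libraries less clearly. Values with the replicate block are given where they change a call, those over time in DMSO in the closing section. Alternatives were DESeq2 1.42.0, RLE scaling, no filter, all libraries in 1 fit, the block, a term for or a split by replicates 1 and 2 against 3 and 4, and each library left out (74 regroupings). Motifs were sought in 32851 RefSeq promoter windows. All 10 genes and the lists were chosen with earlier results of these data known; other pathway genes were named by largest change among those called (at most 6 per comparison), markers up to 4 per list. Intervals reflect the spread among these libraries only. Some results on marker and similar genes are not reported here.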

Additional observations from a re-analysis of the deposited data

Results flagged for a closer look

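The effect of 10 µM BPDP differed between 24 h and 3 h for Dll4 by -1.24 and for Nrarp by -1.98 (log2, 24 h effect minus 3 h effect; adjusted p 0.00282 and 0.00941 in the fit of all 24 libraries). At 24 h all 4 treated libraries of each gene were below all 4 DMSO libraries, and at 3 h the treated libraries overlapped the DMSO libraries for both genes. In the 1 µM group at 3 h, replicate 3 stood apart from the other libraries of its group for Dll4, at 8.79 CPM against 11.7 to 12.2 CPM, and for Jag1, at 33.0 CPM against 38.9 to 39.9 CPM. Of 60 groups of 4 libraries checked, 2 held such a library, and chance gives about 1 in 20.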

How the results depend on the processing

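Of 740 alternative values of 48 tested results, 670 kept direction and side of the threshold, 25 fell below it, 21 passed it and 24 changed sign; causes were not tested. With 10 µM at 24 h, 5 of the 10 genes were called in the fit of all 24 libraries, 0 in replicates 1 and 2 alone, and 0 to 4 with 1 library left out (0 without 10 µM replicate 1 or 4). With 10 µM at 3 h, 1 was called with no filter, 1 with DESeq2, 1 with the term for replicates 1 and 2 against 3 and 4, and 2 with the replicate block. Over time in DMSO, 0 were called in replicates 1 and 2 alone and 2 to 3 with 1 library left out; there the number pairs only 3 of 4 replicates beyond r = 0.1 (0.09 to 0.404), and the block called 3, the third being Notch1 (0.43, adjusted p = 0.00857). Leaving out 1 library gave 1 to 2 calls between doses at 24 h and over time with 1 µM and with 10 µM. The block changed no other call than those named here or in the report.

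Signs that changed belonged to uncalled values. At 24 h and 10 µM these were Notch1 (0.08) and Jag2 (0.19) in replicates 3 and 4 alone, and Hey2 with the block (-0.04) and in replicates 3 and 4 alone (-0.22). At 3 h and 10 µM it was Hey1 in replicates 1 and 2 alone (0.01). Over time in DMSO these were Hes1 in replicates 1 and 2 alone (-0.01) and Heyl in replicates 3 and 4 alone (0.27). With 1 library left out, ranges crossing 0 were, at 10 µM and 24 h, Hey2 (-0.33 to 0.19) and Jag2 (-0.32 to 0.03); at 10 µM and 3 h, Dll1 (-0.03 to 0.33), Hey1 (-0.06 to 0.02) and Jag2 (-0.00 to 0.14); over time in DMSO, Hes1 (-0.07 to 0.16), Heyl (-0.28 to 0.12) and Jag2 (-0.02 to 0.30).

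Genes called with 10 µM at 24 h (963) became 1870 in the fit of all 24 libraries, 1573 with DESeq2, 1645 with the block and 6 in replicates 1 and 2 alone. At 3 h (1) they became 52, 482 and 335 in those 3 fits, 142 with no filter, 446 with the term, and 4 and 48 in the split replicates. With 1 µM at 24 h (12) they became 95 in the fit of all libraries, 60 with DESeq2 and 0 and 29 in the split replicates; over time in DMSO (1494), 2739 in the fit of all libraries and 44 in replicates 1 and 2 alone. Between 10 µM and 1 µM at 24 h (559) DESeq2 called 847, and at 3 h (0) it called 4, no filter 1 and the block 3. The effects of 10 µM (432) and 1 µM (6) differed between times for 674 and 15 genes with DESeq2. With 1 µM at 3 h (0), the block called 2 and the split replicates 1 and 2. With 1 library left out the counts were 491 to 1242 and 1 to 11 for 10 µM at 24 h and 3 h, 7 to 12 for 1 µM at 24 h, 791 to 1600 over time in DMSO, 275 to 593 between doses at 24 h, and 3 to 10 for the 1 µM difference. Ranking by CPM without length kept 23 of 60 ranks. At 2.66 to 7.02 CPM at 24 h, Hey2 had the fewest reads and intervals among the widest.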
